A study of Rattus norvegicus with 24 samples.

Results

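The genes described here encode the myelin-associated inhibitors of axon growth and the Nogo receptor family: the ligands Rtn4 (Nogo), Mag (myelin-associated glycoprotein) and Omg (oligodendrocyte myelin glycoprotein), the receptors Rtn4r (NgR1), Rtn4rl1 (NgR3) and Rtn4rl2 (NgR2), and the co-receptor Lingo1. These 7 genes were chosen by name, out of 14218 genes with a probe set of their own. Each gene was read through its brightest probe set, taken by mean over the 24 arrays among those that carry its symbol alone, and 13 such probe sets belong to the 7 genes. RNA of the rat thoracic spinal cord was hybridised to Affymetrix rat genome arrays, 24 in all with 4 per group. The sham rats had the vertebral laminae removed without compression of the cord, and the injured rats, taken 1, 3, 7, 14 or 56 days later, had a 35 g aneurysm clip closed on the cord for 1 min. All were female Wistar rats for which no transgene is named. The methods name halothane anaesthesia, and an antibiotic for 7 days and analgesia after surgery. Each array holds 1 rat and each day is made of different animals. The sources used here give neither their age nor when the sham animals were taken, and this 1 sham group serves for all 5 days. Separate pre-processing of each time point is stated in the methods, so a day and its pre-processing cannot be told apart.

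The 3 ligands lie on myelin and oligodendrocytes and hinder the regrowth of cut axons in the adult central nervous system. They bind NgR1, which is held on the neuron surface by a lipid anchor and cannot signal alone. A complex with LINGO-1 and p75 (Ngfr) or TROY (Tnfrsf19) carries the signal inwards to RhoA and its kinase ROCK, which act on the cytoskeleton and make growth cones collapse. Oligodendrocytes make all 3 ligands, many neurons also make Nogo and OMgp, and LINGO-1 is made by both neurons and oligodendrocytes. In whole tissue, fewer cells of a type and less RNA per cell cannot be told apart, and this holds for every value given here.

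The start regions of Mag, Omg and Lingo1, a ligand of the myelin sheath, a ligand that neurons share and the co-receptor, are shown because the results turn on these genes. The RefSeq promoter table (GRCr8 assembly) gave 300 bases, 250 before and 50 after the start, for 5 of the 7 genes. The sequences run 5′ to 3′ on the coding strand, here the minus strand for each, at chr1:95290995-95291294 (Mag), chr10:64962001-64962300 (Omg) and chr8:65924117-65924416 (Lingo1). Capitals mark matches to the motifs searched on both strands, AACAAT (a core that SOX factors bind), CAGCTG (an E-box) and TATAAA (the TATA box).
Mag: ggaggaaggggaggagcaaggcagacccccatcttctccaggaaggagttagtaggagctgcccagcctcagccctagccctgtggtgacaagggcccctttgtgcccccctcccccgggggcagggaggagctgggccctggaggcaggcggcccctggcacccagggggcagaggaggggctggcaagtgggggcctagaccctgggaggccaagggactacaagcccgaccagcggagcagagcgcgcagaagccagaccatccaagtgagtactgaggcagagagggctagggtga
Omg: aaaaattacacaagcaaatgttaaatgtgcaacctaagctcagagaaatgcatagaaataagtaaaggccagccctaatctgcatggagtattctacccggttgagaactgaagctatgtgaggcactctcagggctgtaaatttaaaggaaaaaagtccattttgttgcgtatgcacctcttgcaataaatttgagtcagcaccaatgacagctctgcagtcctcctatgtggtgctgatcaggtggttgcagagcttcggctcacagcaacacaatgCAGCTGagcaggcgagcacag
Lingo1: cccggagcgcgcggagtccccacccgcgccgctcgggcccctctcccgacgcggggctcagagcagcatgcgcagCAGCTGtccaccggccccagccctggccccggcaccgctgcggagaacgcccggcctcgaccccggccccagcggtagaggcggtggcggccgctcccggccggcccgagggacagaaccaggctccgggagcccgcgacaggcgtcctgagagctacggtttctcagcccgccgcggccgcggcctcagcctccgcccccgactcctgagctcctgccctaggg
G and C made up 67.7% of the Mag sequence, 44.7% of the Omg sequence and 78.0% of the Lingo1 sequence, against a median of 51.7% over all promoters of the table. CAGCTG, which reads the same on both strands, stood once in Omg (base 280) and once in Lingo1 (base 76), and neither AACAAT nor TATAAA was found in these windows. Of 33469 promoters, 15.1% hold CAGCTG, 11.7% AACAAT and 14.2% TATAAA. These matches describe the letters only.

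The values are log2 expression, and the level behind a change was read first. Control probe sets for Bacillus transcripts, which have no target in rat RNA, gave the level of no target (27 probe sets, array means 2.62 to 2.91, array maxima 3.05 to 3.50). Rtn4, Mag, Omg and Lingo1 stood above the highest of these controls on all 24 arrays, with means over the arrays of 13.72, 13.13, 9.92 and 9.88. The receptors lay close to it. Rtn4r, the receptor that all 3 ligands bind, averaged 3.45, lay between 3.17 and 3.70 and passed the highest control on 24 of 24 arrays, whereas its 2 other probe sets, at 3.02 and 2.42, did so on 1 and on 0. Rtn4rl2 averaged 3.28 and passed the highest control on 16 of 24 arrays, and Rtn4rl1 averaged 3.06 and passed it on 3 of 24.

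**Figure D1:**
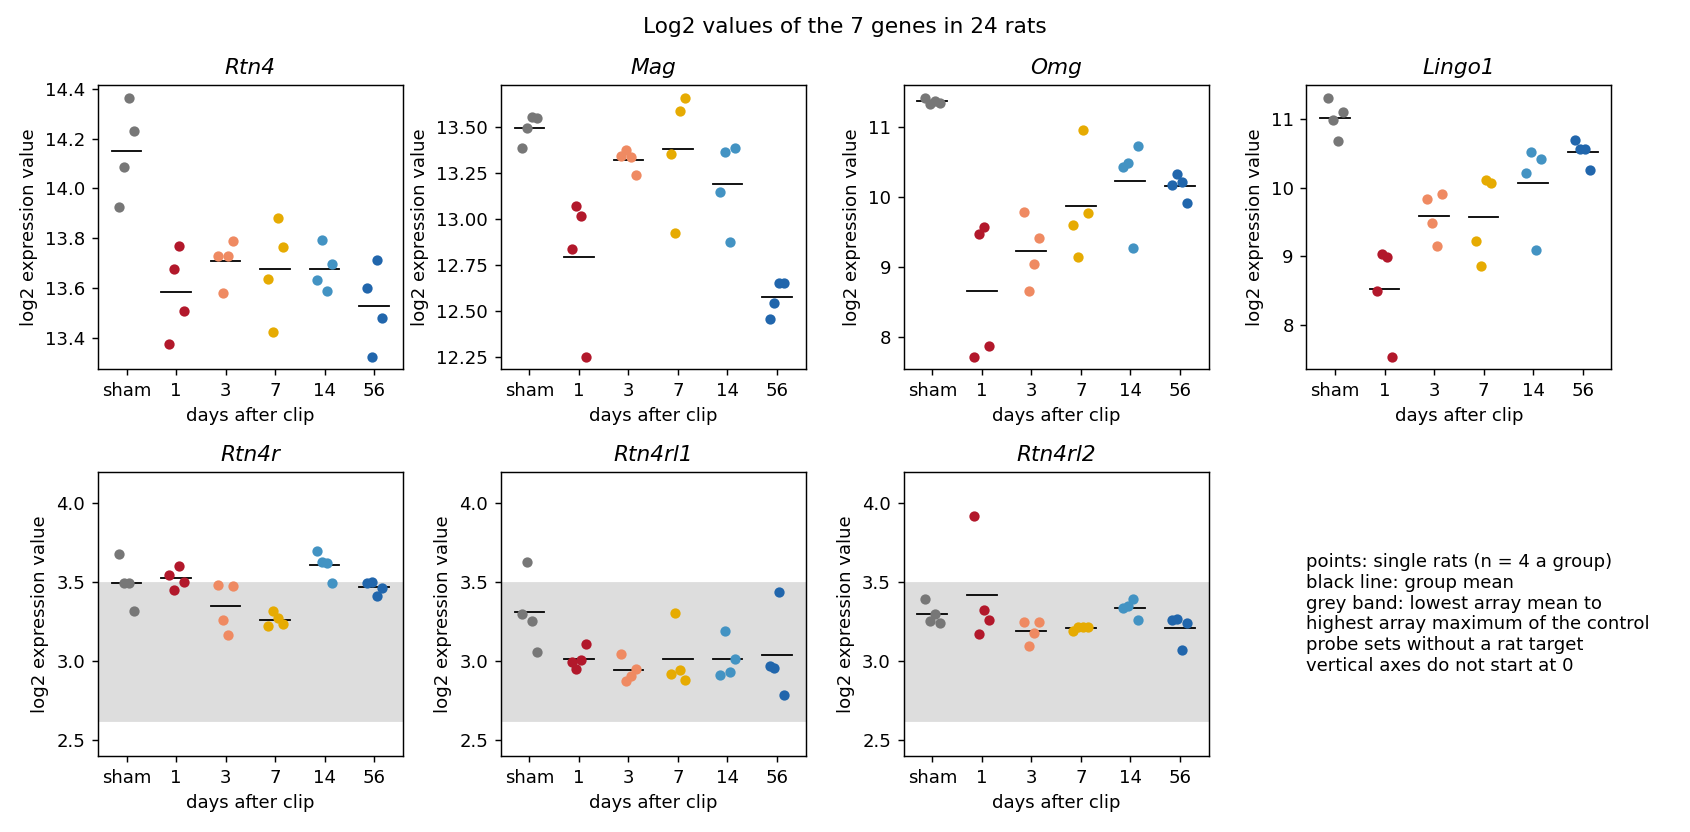
Log2 expression of the 7 genes in each rat, by group (sham, then days 1, 3, 7, 14 and 56), 1 point per array with the group mean as a line (n = 4 rats per group), and a grey band in the receptor panels for the level of the control probe sets. Rtn4, Mag, Omg and Lingo1 lie well above the level of the control probe sets, and Rtn4r, Rtn4rl1 and Rtn4rl2 lie near it at every time.

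Across the 5 days, no member was called higher than in the sham rats, and 4, 4, 4, 2 and 3 of the 7 were called lower on days 1, 3, 7, 14 and 56 (limma, Benjamini-Hochberg adjusted p under 0.05). Over all 14218 genes the share called lower was 20.4% on day 1, 16.7% on day 3, 30.0% on day 7, 16.3% on day 14 and 15.9% on day 56, and the share called higher was 28.9%, 23.7%, 23.5%, 15.8% and 16.1%. The 4 well-measured genes were called lower on different days. Rtn4 was lower on all 5 days, Mag on days 1 and 56, Omg on days 1, 3, 7 and 56, and Lingo1 on days 1, 3, 7 and 14.

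Rtn4 encodes the reticulon whose longest isoform, Nogo-A, is the neurite growth inhibitor of myelin. Its values were 13.93, 14.09, 14.36 and 14.23 in the sham rats, 13.38, 13.68, 13.77 and 13.51 on day 1, and 13.73, 13.58, 13.73 and 13.79 on day 3. They were 13.64, 13.43, 13.88 and 13.76 on day 7, 13.63, 13.79, 13.59 and 13.70 on day 14, and 13.60, 13.33, 13.71 and 13.48 on day 56. Every injured rat lay below every sham rat, as did all 4 injured rats for 19.1% of all genes on day 1, 17.3% on day 3, 34.7% on day 7, 16.6% on day 14 and 17.9% on day 56. The log2 difference from the sham rats was −0.57 on day 1 (adjusted p = 0.000193), −0.44 on day 3 (0.00294), −0.47 on day 7 (0.00172), −0.47 on day 14 (0.00225) and −0.62 on day 56 (0.0002), each with SE 0.11. In linear terms Rtn4 stood at 67.4% of the sham level on day 1 and 65.0% on day 56. No pair of days passed the test against each other. The other Rtn4 probe set did not pass the test on any day (differences −0.07, −0.16, −0.11, −0.50 and −0.60 on days 1, 3, 7, 14 and 56, SE 0.37), and the mean of both probe sets was called on day 56 alone (adjusted p = 0.0344, against 0.251, 0.242, 0.247 and 0.0943 on days 1, 3, 7 and 14). The sources used here do not say which Nogo isoforms each of them reads.

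Mag encodes a sialic acid-binding glycoprotein of the innermost myelin layer, which oligodendrocytes and Schwann cells make. On day 1 its values were 12.84, 13.07, 13.01 and 12.25, against 13.38, 13.50, 13.55 and 13.55 in the sham rats. On days 3, 7 and 14 they were 13.34, 13.37, 13.34 and 13.24, then 13.35, 12.93, 13.59 and 13.66, and then 13.14, 13.36, 12.88 and 13.38. On day 56 they were 12.46, 12.54, 12.65 and 12.65. The rats of days 1, 3, 14 and 56 lay below all sham rats, those of days 3 and 14 by a narrow margin, and the day 7 rats overlapped with them. Of all genes, 19.1%, 17.3%, 16.6% and 17.9% had all 4 values below the sham rats on days 1, 3, 14 and 56. The log2 difference was −0.70 on day 1, which left 61.5% of the sham level (SE 0.16, adjusted p = 0.00107), and −0.92 on day 56, which left 52.9% (0.000197). The day 3, day 7 and day 14 differences of −0.17, −0.11 and −0.30 did not pass (adjusted p = 0.368, 0.558 and 0.182).

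The return of Mag after day 1 and the second fall were also seen between injured groups. Day 3 and day 7 rats were above day 1 rats by 0.53 (adjusted p = 0.0158) and 0.59 (0.0201). Day 56 rats differed from day 3 rats by −0.75 and from day 7 rats by −0.80 on the log2 scale (adjusted p = 0.00105 and 0.00547). The difference between days 56 and 14, −0.62, did not pass (0.160), although all 4 day 56 values lay below the day 14 values. Of all genes, 35.4% were called for day 3 against day 1, 21.2% for day 7 against day 1, 36.7% for day 56 against day 3 and 6.77% for day 56 against day 7. For day 56 against day 14 the share was 0.338%, and 8.59% of genes had all 4 day 56 values below. Without day 1 replicate 4, which had the lowest Mag value of all 24 arrays (12.25), no member was called between days 3 and 1.

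Omg encodes a leucine-rich repeat glycoprotein with a lipid anchor, made by oligodendrocytes and by neurons. It stood at 11.42, 11.33, 11.38 and 11.35 in the sham rats, at 7.73, 9.47, 9.58 and 7.88 on day 1, and at 9.79, 8.66, 9.05 and 9.42 on day 3. The values were 9.61, 9.14, 10.96 and 9.78 on day 7, 10.43, 10.49, 9.28 and 10.74 on day 14, and 10.17, 10.33, 10.22 and 9.92 on day 56. All 20 injured rats lay below the sham rats, whose SD was 0.039, against SDs of 1.00 on day 1, 0.77 on day 7 and 0.18 on day 56. All 4 injured values lay below for 19.1%, 17.3%, 34.7%, 16.6% and 17.9% of all genes on days 1, 3, 7, 14 and 56. The log2 difference was −2.70 on day 1, which left 15.3% of the sham level (SE 0.42, adjusted p = 2.39e-05), −2.14 on day 3 (0.000465) and −1.50 on day 7 (0.00841). The day 14 difference of −1.13 missed the threshold (0.0509) and the day 56 difference of −1.21 passed it (0.037). Omg was then at 43.3% of the sham level.

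Both late Omg differences were close to the threshold. The day 56 call was lost when any 1 of the 8 rats compared was left out (adjusted p 0.053 to 0.091). It was lost under 9 of 16 alternatives and kept under 7 (lowest limma adjusted p = 0.000143). The day 14 difference passed under 6 of 17 alternatives. Between injured groups, day 14 and day 56 rats were above day 1 rats by 1.57 (adjusted p = 0.0102) and 1.50 (0.0113), and day 14 rats above day 3 rats by 1.01 (0.0498). The fit called 27.9%, 32.3% and 57.8% of all genes in these 3 comparisons.

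Lingo1 encodes the transmembrane co-receptor of NgR1, which also holds back the maturation of oligodendrocytes. Its values were 11.30, 10.97, 10.68 and 11.10 in the sham rats, 8.50, 9.03, 9.00 and 7.54 on day 1, and 9.83, 9.49, 9.15 and 9.91 on day 3. They were 9.22, 8.86, 10.11 and 10.07 on day 7, 10.21, 10.51, 9.09 and 10.42 on day 14, and 10.69, 10.57, 10.56 and 10.26 on day 56. The rats of days 1 to 14 lay below every sham rat, and the day 56 rats overlapped with them. The share of all genes with all 4 values below was 19.1%, 17.3%, 34.7% and 16.6% on days 1, 3, 7 and 14. The log2 difference was −2.49 on day 1 (17.7% of the sham level, SE 0.35, adjusted p = 5.91e-06), −1.42 on day 3 (0.00289), −1.45 on day 7 (0.00247) and −0.95 on day 14 (0.044). The day 14 call was lost under 10 of 17 alternatives. Among these were the fits without day 14 replicate 3, where the difference was −0.63 (0.203), without day 14 replicate 1 (0.0618) and without sham replicate 1, 2 or 4 (0.109, 0.0732 and 0.0863).

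On day 56 Lingo1 was not called, at −0.50 (adjusted p = 0.351), with a 95% interval of −1.22 to 0.23. The day 56 rats were above day 1 rats by 2.00 (0.000218) and above day 3 rats by 0.92 (0.0465), and the day 3, day 7 and day 14 rats were above the day 1 rats by 1.07, 1.05 and 1.54 (0.0226, 0.0426 and 0.00266). A fit of the day 56 and sham rats alone called the day 56 difference (0.0415), and so did the mean of the gene's probe sets (0.0141). That mean takes in dim probe sets, 1 of which averaged 1.90 and passed the highest control on 0 of 24 arrays. The other dim Lingo1 probe set, with 3.43, 4.58, 3.65 and 4.41 in the sham rats, was called lower on every day (day 1: −1.17, adjusted p = 7.64e-05, and day 56: −0.89, adjusted p = 0.00227). It passed the highest control on 5 of 24 arrays only, so these sizes are not exact.

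**Figure D2:**
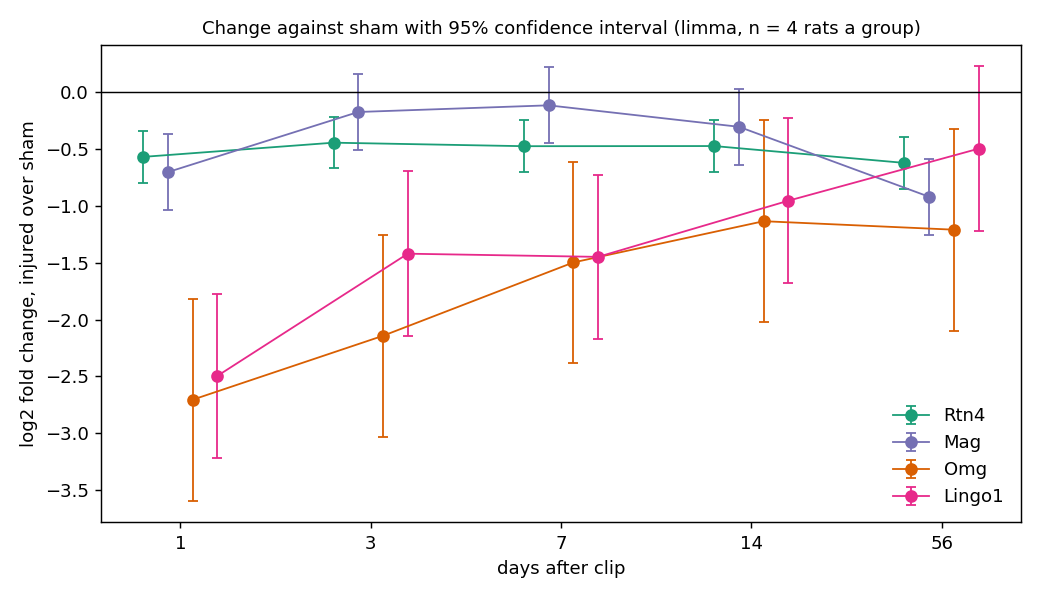
Log2 difference of each day from the sham rats for Rtn4, Mag, Omg and Lingo1 (n = 4 rats per group), where bars are 95% intervals from the limma fit and lines join the days of a gene. Omg and Lingo1 stand at −2.70 and −2.49 on day 1, and Rtn4 stays between −0.62 and −0.44.

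The 3 receptor probe sets moved little. Rtn4r was called on day 7 alone, with 3.22, 3.32, 3.28 and 3.24, against 3.68, 3.49, 3.49 and 3.32 in the sham rats, a difference of −0.23 (adjusted p = 0.0138, SE 0.071). The mean of the control probe sets, which read no rat gene, was also lower on day 7, with differences from the sham rats of 0.02, −0.09, −0.13, 0.07 and −0.05 on days 1, 3, 7, 14 and 56, and the signs of Rtn4r, at 0.03, −0.15, −0.23, 0.12 and −0.03, were the same on each day. Day 14 rats were above day 7 rats by 0.35 in Rtn4r (0.0113), a comparison in which 28.0% of all genes were called. The day 7 call was lost without sham replicate 1 (−0.17, adjusted p = 0.0639) and with quantile normalization of all arrays (−0.11, adjusted p = 0.0695). Rtn4rl1 was called on day 3 alone, at −0.36 (0.0281), with 4 values below those of the sham rats, as for 17.3% of all genes. The call was lost under 5 of 15 alternatives, among them without sham replicate 2 (0.113) and without day 3 replicate 2 or 3 (0.0703 and 0.0631). Its other probe set was called on day 7 (−0.07, adjusted p = 0.0482) and not on day 3 (−0.07, 0.0616). Of the 2 other Rtn4r probe sets, 1 was called on day 7 (−0.12, adjusted p = 0.0343) and 1 was not (−0.11, 0.153). These other probe sets passed the highest control on 0 or 1 of 24 arrays. Rtn4rl2 was not called on any day, with differences between −0.10 and 0.12. At this signal the size of a change in the RNA of these receptors could not be read.

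Differences between genes were also taken within each array, with 4 rats against 4, where the smallest possible exact p is 0.0286. The smallest adjusted p over the 15 comparisons was 0.0536, so none passed after adjustment. Within each array, Omg minus Mag shifted by −2.00, −1.97, −1.38, −0.83 and −0.29 on days 1, 3, 7, 14 and 56 against the sham rats, with no overlap between injured and sham rats on any day (exact permutation test, two-sided p = 0.0286 and adjusted p = 0.0536 each). Omg minus Lingo1 shifted by −0.72 on day 3 and −0.71 on day 56, each without overlap (exact p = 0.0286, adjusted p = 0.0536), and by −0.21, −0.05 and −0.18 on days 1, 7 and 14 with overlap (exact p = 0.714, 0.943 and 0.314). Mag minus Rtn4 shifted by 0.36 on day 7 (exact p = 0.0286, adjusted p = 0.0536), by 0.27 on day 3 and −0.30 on day 56 (exact p = 0.0571, adjusted p = 0.0857 each), and by −0.13 and 0.17 on days 1 and 14 (exact p = 0.6 and 0.171). Over all 24 arrays, which hold the differences between the groups, Pearson's r was 0.90 between Omg and Lingo1, 0.70 between Omg and Rtn4, 0.68 between Mag and Rtn4, and 0.48 between Mag and Omg.

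**Figure D3:**
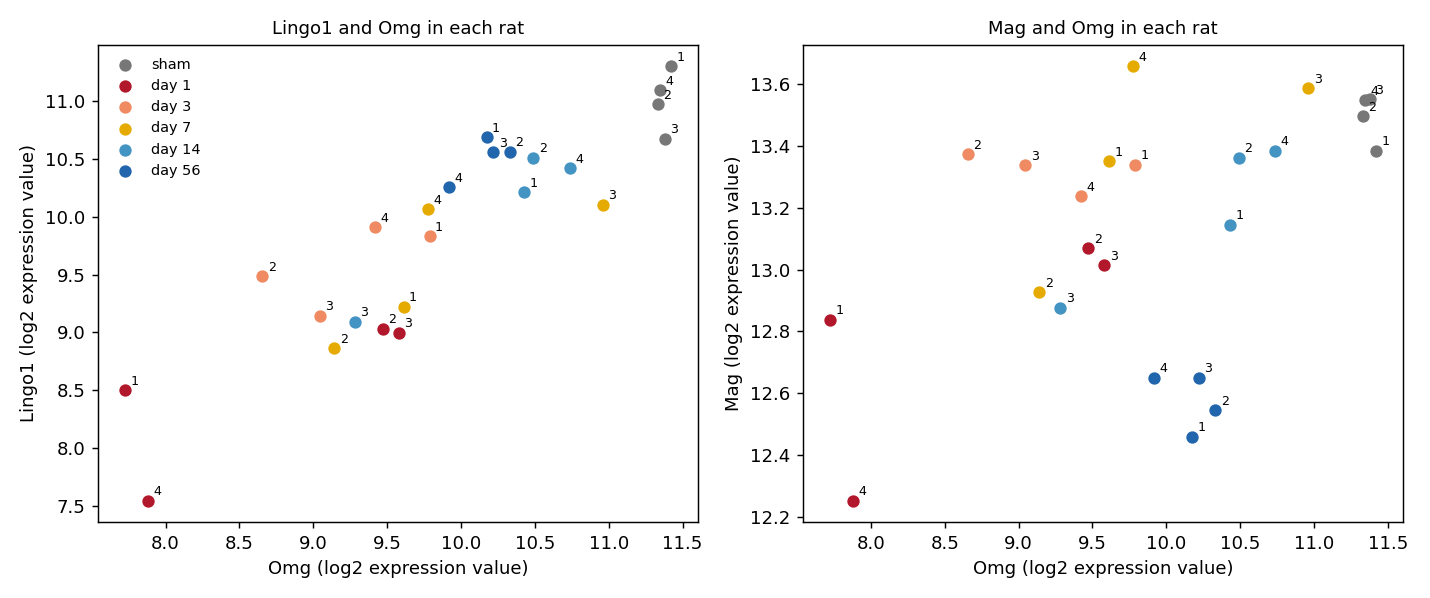
Lingo1 against Omg (left) and Mag against Omg (right) in each rat on the log2 scale, coloured by group, with the replicate number beside each of the 24 points. Day 1 rats spread from 7.73 to 9.58 in Omg, day 56 rats lie between 12.46 and 12.65 in Mag and between 9.92 and 10.33 in Omg, and the points of Omg and Lingo1 lie along a common slope.

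On days 1, 7 and 14 the same arrays were the lowest or highest of their group in several of these genes. Day 1 replicate 4 had the lowest Mag and Lingo1 of its group, at 12.25 and 7.54. Omg was at 7.73 and 7.88 in day 1 replicates 1 and 4, against 9.47 and 9.58 in replicates 2 and 3. Day 14 replicate 3 and day 7 replicate 2 each had the lowest Rtn4, Mag, Omg and Lingo1 of its group. Day 7 replicate 3 had the highest Rtn4, Omg and Lingo1 of its group, at 13.88, 10.96 and 10.11. The same arrays were the highest or lowest of their groups in the mean level of marker lists. Day 14 replicate 3 was at 7.72 in the neuron list (9.86 to 10.23 in the other 3 rats) and 11.85 in the fibroblast and meningeal list (9.69 to 10.19), day 7 replicate 2 was at 8.61 and 12.29 in these lists, and day 7 replicate 3 was at 10.94 and 9.82. Day 1 replicate 4 was at 7.28 in the neuron list (8.35 to 9.16 in the other 3 rats) and 11.3 in the fibroblast and meningeal list (9.39 to 10.73). The part of these markers in the values was not tested. Without day 1 replicate 4, the day 1 differences of Mag, Omg and Lingo1 were −0.52, −2.44 and −2.17 and still passed. The 3 arrays of days 7 and 14 were also left out together. The day 7 differences of Omg and Lingo1 were then −1.68 and −1.37. The day 14 differences were −0.82 and −0.63, which did not pass (adjusted p = 0.138 and 0.16). Pairs of arrays of a group correlated between 0.973 and 0.996, with the lowest pair on day 7.

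Markers of myelinating oligodendrocytes and of neurons were also lower after injury, on partly different days, and their part in the changes of the 4 genes was not tested. Over all genes, 20.4%, 16.7%, 30.0%, 16.3% and 15.9% were called lower on days 1, 3, 7, 14 and 56. A list of 16 genes of myelinating oligodendrocytes had 14 measured here, of which 10, 8, 5, 7 and 10 were called lower on these days and none higher. The day 14 count was 3 without day 14 replicate 3 and 4 without sham replicate 3, and the day 7 count was 3 without day 7 replicate 2. The mean level of the list was 10.70 to 11.65 on day 1, 11.49 to 11.79 on day 3, 11.18 to 12.19 on day 7, 11.38 to 12.06 on day 14 and 11.29 to 11.53 on day 56, against 12.18 to 12.36 in the sham rats. The median difference of its genes was −0.79 on day 1 and −0.77 on day 56, against 0.01 and −0.02 over all genes. The 4 genes of the list with the highest sham mean were Mbp, Mobp, Cldn11 and Cnp, structural and enzyme proteins of myelin, at 15.35, 15.36, 14.60 and 13.84. The lowest was Opalin, at 8.18. Of the other cells of the cord, Nefl, a neurofilament, was at 14.46 and Gfap, an astrocyte filament, at 14.74 in the sham rats.

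On day 1 Mag's change lay above that of 7 of the 14 genes and on day 56 above that of 6. Omg's change lay below those of all 14 genes on days 3 and 7, and on day 1 it was tied with Ermn and below the other 13. Ermn, a cytoskeletal protein of oligodendrocytes, was at −2.70, −1.94, −1.38, −1.13 and −1.31 on days 1, 3, 7, 14 and 56, while Mbp was at −0.42 on day 1 and −0.34 on day 56. Schwann cells also make Mag, and 4 Schwann cell markers were measured. Egr2 and Pmp2, a transcription factor and a lipid carrier of peripheral myelin, were higher on every day (3.79 and 1.53 on day 1). Prx, a scaffold of the peripheral sheath, was higher on day 56 alone (1.58, adjusted p = 0.0261, against −0.16 on day 1). Sox2, the brightest of the 4 in the sham rats (11.50), was not called on any day (0.01 on day 1 and 0.31 on day 56). The mean level of these 4 markers was 8.01 to 8.96 on day 1 and 8.01 to 9.26 on day 56, against 6.74 to 7.24 in the sham rats, and their part in the Mag values was not tested.

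The neuron markers were lower on most days. Over all genes the share called lower was 20.4%, 16.7%, 30.0%, 16.3% and 15.9% on days 1, 3, 7, 14 and 56. All 12 genes of the list were measured, and 12, 1, 12, 12 and 10 were called lower on these days, with median differences of −3.51, −0.93, −2.49, −2.40 and −1.97. Its mean level was 7.28 to 9.16 on day 1, 10.95 to 11.29 on day 3, 8.61 to 10.94 on day 7, 7.72 to 10.23 on day 14 and 9.18 to 10.60 on day 56, against 11.84 to 12.19 in the sham rats. Omg was at −2.14 and Lingo1 at −1.42 on day 3, and they were at −1.21 and −0.50 on day 56. The part of the neuron markers in these values was not tested.

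**Figure D4:**
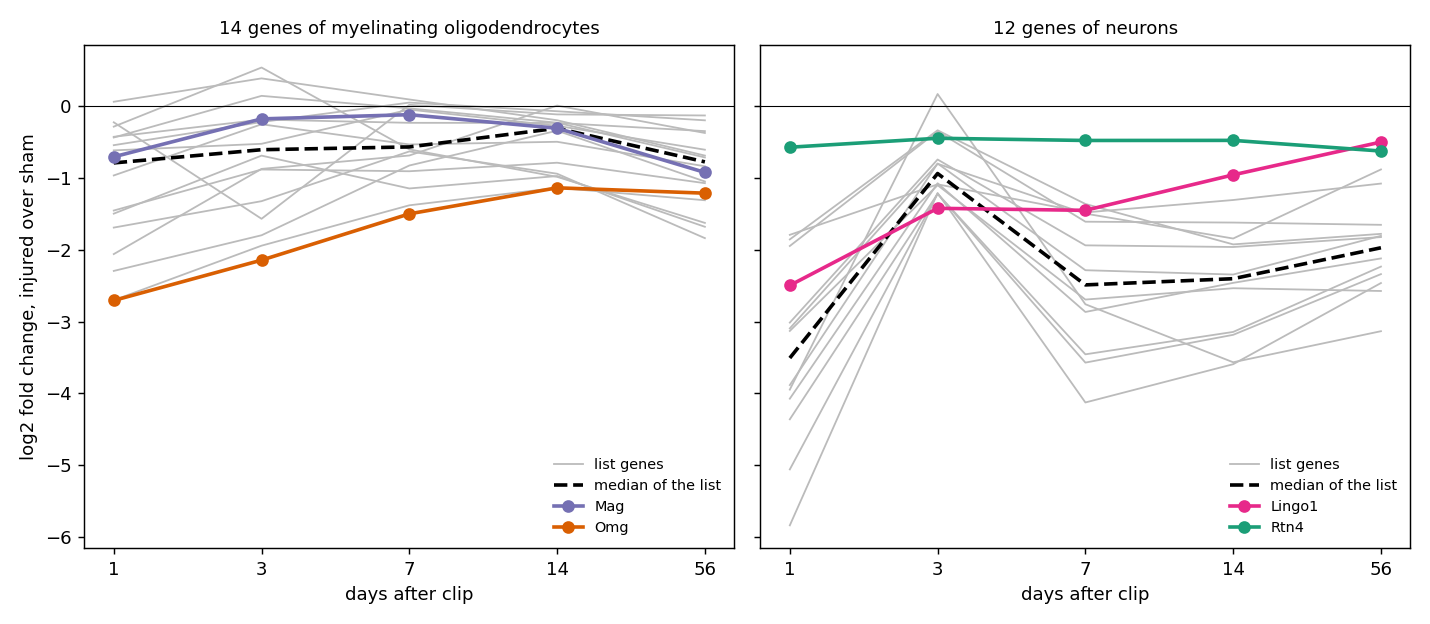
Log2 difference from the sham rats by day for the 14 measured myelinating oligodendrocyte genes (left, grey, with Mag and Omg in colour) and the 12 neuron genes (right, grey, with Lingo1 and Rtn4 in colour), each line 1 gene and the dashed line the median of the list. Omg lies below every gene of the myelin list on days 3 and 7 and level with the lowest, Ermn, on day 1, and the neuron median is −3.51 on day 1 and −0.93 on day 3.

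The other genes of the pathway, 32 measured of 36 in 5 lists, were called in both directions (9, 6, 7, 7 and 5 higher and 14, 10, 14, 14 and 13 lower on days 1, 3, 7, 14 and 56). Over all genes, 28.9%, 23.7%, 23.5%, 15.8% and 16.1% were called higher and 20.4%, 16.7%, 30.0%, 16.3% and 15.9% lower on these days. Among the other receptors and co-receptors, of which 9 of 11 were measured, Ngfr, the p75 signalling partner of NgR1, was higher on days 1, 3, 7 and 14, by 1.38 on day 7 (adjusted p = 0.00411), and its day 56 difference of 0.42 did not pass (0.464). Itgb1, an integrin subunit, was higher on every day (1.47 on day 1 and 1.03 on day 56), and S1pr2, a receptor for a Nogo-A domain, was higher on days 1, 7 and 14 (2.31 on day 1). Lingo2, a relative of LINGO-1, Cntnap1, a protein of the axon beside the node, and Adgrb1, an adhesion receptor that binds RTN4 receptors, were lower on every day (−1.16, −1.28 and −1.19 on day 1). Lingo2 averaged 3.42 on day 1, against 4.59 in the sham rats, and so reached the control level, so the size of its fall is not exact.

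All 3 secreted antagonists of NgR1 were lower on days 1 and 7. Crtac1 (LOTUS), which blocks ligand binding to NgR1, was at −3.01 on day 1, −1.41 on day 3 and −2.69 on day 56. Lgi1, which is best known for synapses and epilepsy, was at −4.25 on day 1 and at −1.63 and −0.71 on days 14 and 56, which did not pass. Olfm1 was called lower on days 1, 7, 14 and 56 (−1.34 on day 56).

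The other reticulons were also lower. Rtn1, Rtn2 and Rtn3, membrane proteins of the endoplasmic reticulum, were at −1.83, −3.32 and −1.44 on day 1, and Rtn3 at −0.94 on day 56. Rtn2 averaged 2.38 on day 1, against 5.70 in the sham rats, and so lay below the mean of the control probe sets. Nus1, the Nogo-B receptor, named after its values were seen, was higher on days 1 and 3 by 0.44 and 0.42.

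Downstream genes were called in both directions. Rhoa, the GTPase at the centre of the pathway, was higher on every day, by 1.13, 0.85, 0.93, 0.63 and 0.51 on days 1, 3, 7, 14 and 56, and Limk1, a kinase that acts on cofilin, was lower on all days other than day 3 (−1.42 on day 56). Of the RhoA and ROCK genes, 10 of 12 were measured and 5, 7, 6, 4 and 6 were not called on days 1, 3, 7, 14 and 56. B4galnt1, the synthase whose product leads to the gangliosides that Mag binds, was at −3.33 on day 1 and −3.04 on day 56, while Ugcg and St3gal5, earlier steps of that route, were higher on day 56 by 1.40 and 0.98. B4galnt1, at 1.80 on day 1 against 5.13 in the sham rats, and Crtac1, at 2.96 against 5.97, also reached the control level, so the sizes of these falls are not exact.

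**Figure D5:**
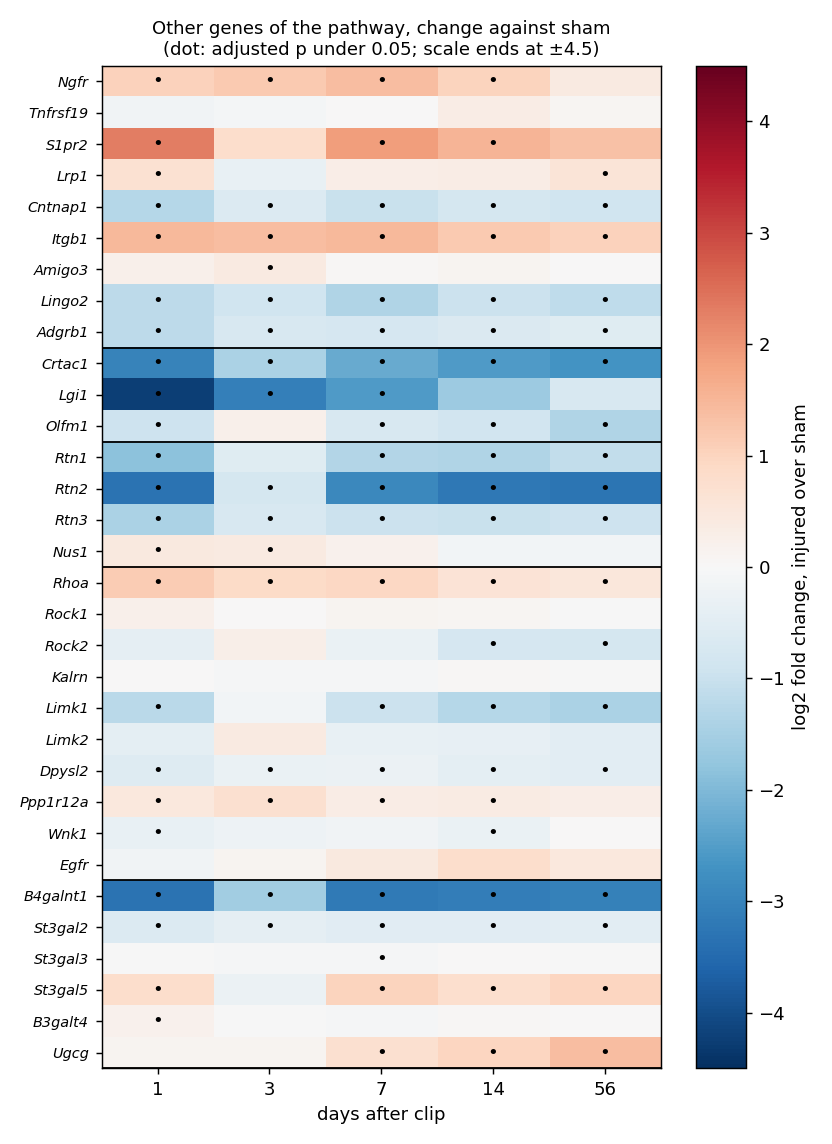
Heatmap of the log2 difference from the sham rats on days 1, 3, 7, 14 and 56 for the measured genes of the 5 pathway lists, where red is higher and blue is lower in injured rats and a dot marks an adjusted p under 0.05. Lgi1 is at −4.25 on day 1, Rhoa and Itgb1 are higher on every day, and Crtac1, Rtn2, Rtn3 and B4galnt1 are lower on every day.

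The genes whose values followed each member most closely over the 24 arrays, among 9233 genes with a group mean of at least 5, are given as a description. For Omg they were Ermn (r = 0.97), Grm3, a glutamate receptor (0.96), and Lrrc4c, a synaptic adhesion protein (0.96). For Lingo1 they were Cyp2d4 (0.97), Acsl6, a fatty acid-activating enzyme (0.96), and Lrrc4c (0.96). For Mag they were Pea15, a signalling adaptor (0.92), Ncald, a calcium sensor (0.91), and Dbndd2 (0.90), and for Rtn4 Dact3, a modulator of Wnt signalling (0.89), C9h2orf69 (0.89) and Armcx1 (0.89). The correlation takes in the differences between groups, and all points share the arrays. None are named for the 3 receptors, whose values lie near the control probe sets.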

How the data were processed

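The authors extracted and hybridised the RNA of each rat and made the deposited log2 values from the scans with affy 1.12.2 and GCRMA, and no normalization was added here. All probe sets with 1 symbol in the platform annotation (20832, for 14218 genes) entered 1 limma 3.58.1 model in R 4.3.3 (6 groups, 18 residual and 1.08 prior degrees of freedom), and p values were adjusted by Benjamini-Hochberg within each comparison. Sequences come from the RefSeq promoter table. Exact permutation tests and figures used Python 3.11.15, scipy 1.17.1, numpy 2.4.6, pandas 2.3.3 and matplotlib 3.10.9, and statmod 1.5.0 the replicate block and robust fit.

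The members, lists and tests were chosen with earlier results of these data known. Named genes were the members, up to 6 genes per pathway list that passed the test with a log2 change of at least 1, the 4 markers per list with the highest sham mean and the 3 genes most alike per member. The fit was tested on simulated data with known changes. Alternatives were other fits, normalizations, filters and probe set rules, and the omission of single arrays. The number of arrays per group, 4, limits the precision, and the sources used here give no array dates.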

Additional observations from a re-analysis of the deposited data

Results flagged for a closer look

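In 42 groups of 4 arrays, 1 for each member and group, 3 held an array far from the other 3 of its group, and chance gives about 1 in 20 groups. Rtn4rl1 stood at 3.31 in day 7 replicate 2, where the nearest value was 2.94. Rtn4rl2 stood at 3.19 in day 7 replicate 1 (nearest 3.22) and at 3.07 in day 56 replicate 3 (nearest 3.24). All 3 values lie near the level of the control probe sets.

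Differences from the sham rats that were not the same on 2 days in a row were tested as differences between those days. Mag differed by 0.53 (adjusted p = 0.0158) and Lingo1 by 1.07 (0.0226) between days 3 and 1, and Rtn4r by 0.35 (0.0113) between days 14 and 7. The control probe sets moved in the same direction as Rtn4r between these days, with differences from the sham rats of 0.07 on day 14 and −0.13 on day 7. Whether the dim Rtn4r signal moved with them was not tested.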

How the results depend on the processing

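Of 559 member differences recomputed under an alternative, 501 kept their direction and call, 30 lost the call, 21 gained it and 7 turned sign, none of which passed the test before or after. The sign turned for Mag on day 7 without the 3 arrays together (0.0094) and with single arrays left out (−0.21 to 0.037, without day 7 replicate 2), and for Rtn4r on day 1 with single arrays left out (−0.029, without sham replicate 4, to 0.091). It also turned for Rtn4r on day 56 with quantile normalization (0.018) and with single arrays left out (−0.085 to 0.035, without sham replicate 1), and for Rtn4rl2 on day 1 with single arrays left out (−0.043, without day 1 replicate 1, to 0.21) and on day 7 with quantile normalization (0.031). Of the counts, 291 stayed within 1.5 times of the value given and 22 did not. The members called on day 14 (2) numbered 1 with the methods' t-test, quantile normalization, the replicate block and the 3 arrays left out, and 1 to 3 with single arrays left out. Between days 3 and 1 (2 called) the count was 0 with the fit of both groups alone, 1 with a gene's probe sets averaged and 0 to 4 with single arrays left out. Between days 14 and 7 (1 called) it was 2 with that fit, 0 without dim probe sets and 0 without the 3 arrays, which gave 1 between days 56 and 14 (0 called). The myelin genes called on day 7 (5) numbered 3 with median centring and 3 to 6 with single arrays left out, and on day 14 (7) they numbered 4 with quantile normalization and without the 3 arrays, and 3 to 7 with single arrays left out. The removal of the 3 arrays was chosen after seeing the data. The cause of these differences was not tested.

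The replicate numbers do not pair the rats: over 60 pairs of same-numbered arrays the deviations correlated between −0.66 and 0.45, and 3 of 24 arrays correlated best with their own number. With the replicate block, the Omg call on day 56 (adjusted p = 0.0579) and the Lingo1 call on day 14 (0.0681) were lost. Precision is limited by 4 arrays per group and, for the receptors, by signal near the control probe sets.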

Other observations

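Other cell type markers in the same tissue are given as values. Over all genes, 28.9%, 23.7%, 23.5%, 15.8% and 16.1% were called higher and 20.4%, 16.7%, 30.0%, 16.3% and 15.9% lower on days 1, 3, 7, 14 and 56. All 7 microglia and macrophage genes were higher on days 1, 7, 14 and 56, and 5 were higher and 1 lower on day 3, with median differences of 3.39, 1.43, 2.63, 2.09 and 2.18 on days 1, 3, 7, 14 and 56. Of 6 astrocyte genes, 5, 4, 3, 1 and 1 were lower on these days and none higher. Of 5 measured oligodendrocyte precursor genes, 2, 1, 2, 2 and 2 were higher and 0, 1, 1, 0 and 2 lower. Cspg4, the NG2 proteoglycan, was higher by 1.79 on day 1 and by 1.60 on day 56, while Pdgfra, a growth factor receptor of these cells, was lower on day 3 (−1.50) and higher on day 56 (0.98). Olig1, a transcription factor of the oligodendrocyte lineage, was lower on days 7 and 56 (−0.65 and −0.90), and Olig2, its relative, on day 56 (−0.65). Olig2 averaged 3.13 on day 56, against 3.78 in the sham rats, near the control level, so this size is not exact. Of 6 fibroblast and meningeal genes, 5, 1, 4, 4 and 3 were higher, and 3 were lower on day 3. Of 5 endothelial genes, 2, 2, 0, 0 and 0 were higher and 1, 0, 1, 0 and 0 lower. The lower one was Flt1, a VEGF receptor, on days 1 and 7 (−0.95 and −1.20), and Flt1 was among those higher on day 3 (1.92). The part of these lists in the values of Rtn4, Mag, Omg and Lingo1 was not tested.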
